A study of Homo sapiens with 6 samples.

Results

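The genes described here are 40 interferon-stimulated genes, a list drawn up by name and matched to the gene table of the series by symbol. All 40 had a row among its 27830 genes, and 39 of them passed the filter on low counts that left 14463 genes to test. They were measured by RNA sequencing in LX-2, an established immortalised line of human hepatic stellate cells, the liver cells that become matrix-producing myofibroblasts in fibrosis. The comparison is between 3 control samples and 3 samples given 10 ng/ml transforming growth factor beta 1 (TGF-β1), a cytokine that drives liver fibrosis, for 24 h. The labels name no interferon, virus or genetic change for either group, and they place the TGF-β1 treatment in medium without serum. The medium of the controls over those hours is not in the labels, so TGF-β1 and a change of serum cannot be told apart. Separate cultures are not stated either: p-values set a group difference against the spread among these samples only, and that spread may be technical.

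Interferon-stimulated genes are the transcriptional output of the interferon pathway. Type I interferons bind the receptor chains IFNAR1 and IFNAR2, whose kinases JAK1 and TYK2 phosphorylate STAT2, which acts with IRF9 in a complex that binds the interferon-stimulated response element (ISRE) in promoters. Interferon gamma acts through another element, the gamma-activated site (GAS). TGF-β1 signals through SMAD proteins, which bind other elements, and many interferon-stimulated genes keep a basal level in cells that have met no interferon.

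The ISRE is the sequence feature that most of these promoters had in common, so the sites of 8 genes that the values below return to are shown. Promoters were taken from RefSeq on GRCh38.p14, from 250 bases before to 50 after each annotated start, and 31 of the 40 genes had an entry. Each line gives the gene's strand 5′ to 3′, with 1 ISRE core in capitals. The core is GAAA, any 2 bases, GAAA, or its reverse complement, TTTC, any 2 bases, TTTC. Windows of ISG15, BST2, IFIT1 and IFIT3 held 2 cores each, and that of IFI6 held 3. For these genes only the core nearest upstream of a start is marked. Other cores stay in lower case, share bases with the marked core (ISG15 and BST2) or lie outside the line. IFIT3 had cores before more than 1 annotated start.
ISG15: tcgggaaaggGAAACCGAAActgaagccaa
BST2: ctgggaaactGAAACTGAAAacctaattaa
IFI6: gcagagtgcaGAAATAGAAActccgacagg
SAMD9: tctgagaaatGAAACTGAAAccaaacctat
PARP14: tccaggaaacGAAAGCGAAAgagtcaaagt
IFIT1: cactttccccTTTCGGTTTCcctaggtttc
IFIT3: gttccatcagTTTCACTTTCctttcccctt
IFI44: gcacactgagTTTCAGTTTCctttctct
The marked core of ISG15 starts at -107 relative to its annotated start (chr1:1013380-1013409, plus strand), and that of BST2 at -124 (chr19:17405735-17405764, minus strand). The marked core of IFI6 lies at -93 (chr1:27672266-27672295, minus strand). The core of SAMD9 lies at -136 (chr7:93118096-93118125, minus strand), whereas that of PARP14 lies at -29 (chr3:122680800-122680829, plus strand). For IFIT1 the position is -103 (chr10:89392510-89392539, plus strand), for IFIT3 -51 (chr10:89332468-89332497, plus strand) and for IFI44 -18 (chr1:78649761-78649788, plus strand). SAMD9 and BST2 carry the same 10-base core, and the core of IFI44 is its reverse complement. On either strand, the ISRE core occurred in 21 of the 31 promoters (67.7%), against 4.38% of all 27305 genes with a promoter entry. A GAS core, TTCNNNGAA, occurred in 9 of 31 (29%), against 9.38% of all genes. The palindromic SMAD motif GTCTAGAC was found in 0 of 31 of these promoters, against 0.256% of all genes. With so low a share among all genes, 0 of 31 cannot show a lack of the motif. No other SMAD motif was searched. A match is a description of letters and not a measured binding site.

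Totals ran from 13866957 to 17694675 counts per library. FN1, the fibronectin gene and a known TGF-β1 target, rose from 985 ± 68.9 to 3558 ± 184 CPM (counts scaled by library size; mean ± SD, n = 3 per group; edgeR adjusted p = 5.11e-05), while ACTA2, the smooth muscle actin used as a marker of stellate cell activation, had 70, 92 and 77 counts in the controls and 65, 68 and 86 after TGF-β1. Summed stellate cell markers lay at 2904 to 2994 CPM in the controls and 3044 to 3497 CPM after TGF-β1. DCN, LRAT and DES had 10 counts or fewer in every library, and LUM had 4 to 14. Mean CPM was higher after TGF-β1 for COL1A1 (1331 to 1770) and COL3A1. It was lower for VIM (1418 to 1227), THY1, PDGFRB and ACTA2, so the sum does not stand for each marker. Of 9 leukocyte markers 5 had a row, with a summed 17.3 to 23.4 CPM in the controls and 17.1 to 18.7 CPM after TGF-β1. Among these, mean CPM went from 15.8 to 10.2 for CD14 and from 4.77 to 6.44 for CSF1R. Of 5 hepatocyte markers 1 had a row (APOA1), with at most 0.0614 CPM in any library. In bulk samples, fewer cells expressing a gene and less RNA per cell cannot be told apart.

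Before any difference between the groups, the interferon-stimulated genes covered a wide range of levels. Levels of different genes are compared here in FPKM, fragments per kilobase of the authors' gene length, scaled to the library total. ISG15, a ubiquitin-like protein that is attached to other proteins, stood at 408 ± 65.6 FPKM in the controls and 349 ± 81.6 FPKM after TGF-β1, rank 59 of the 14463 tested genes by mean FPKM. BST2, a membrane protein that tethers budding virus particles, followed at 88.0 ± 8.60 and 83.4 ± 14.6 FPKM. The lowest library of each of these lay above the highest library of the gene after it, and among all 38 pairs of neighbours in this order 34 overlapped in range. After them came IFI6 with a mean of 48.3 FPKM over the 6 libraries, OASL with 40.9, IFIT2 with 29.3, IFIT3 with 26.6 and IFIT1 with 26.0. In all, 13 of the 39 tested members had a mean of at least 10 FPKM, 20 lay between 1 and 10, and 6 lay under 1 (IFI44L, XAF1, IRF9, MX2, OAS1 and MX1). This order depends on the authors' gene length, which was 17985 bases for MX1, 1858 for USP18 and 867 for ISG15. MX1 had 141 to 181 counts per library at a mean of 0.565 FPKM, and USP18 had 68 to 101 counts at 2.93 FPKM. A level under 1 FPKM therefore does not by itself mean few reads. The median over the tested members was 6.02 FPKM, against 4.16 FPKM for all tested genes. CMPK2, a mitochondrial nucleotide kinase that lies head to head with RSAD2, was the member that did not pass the filter, with control counts of 5, 7 and 6 and TGF-β1 counts of 2, 6 and 1.

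**Figure D1:**
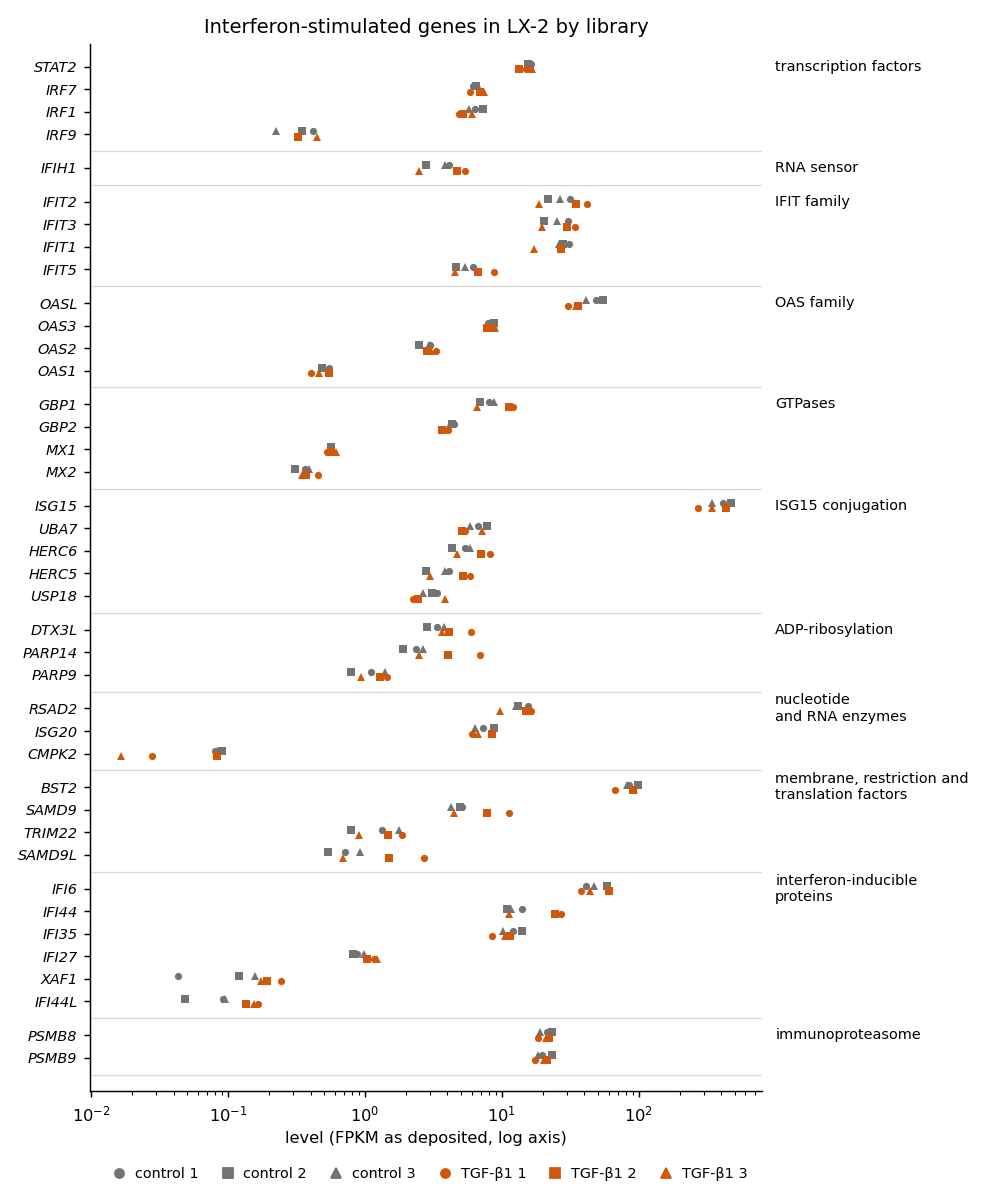
Level of all 40 interferon-stimulated genes, grouped by role, in each of the 6 libraries, in FPKM on a log axis, with grey symbols for control and orange symbols for TGF-β1 libraries. ISG15 stands highest at 379 FPKM on average, and the symbols of the groups lie close together compared with the range between genes.

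Between the groups, 0 of the 39 tested members differed at an adjusted p under 0.05 by edgeR's quasi-likelihood test with Benjamini-Hochberg adjustment over all 14463 genes, of which 0.366% passed. At an unadjusted p under 0.05, 6 members passed, against 15.6% of all tested genes. SAMD9L, IFI44L, PARP14, IFI44 and SAMD9 had a higher estimate after TGF-β1, and OASL a lower estimate. The median log2 difference, TGF-β1 minus control, was 0.11 over the members and 0.01 over all tested genes, with 21 members above 0 and 18 below (51.0% of all genes were above 0). For 33 of the 39 the 95% interval of the difference lay within 1 either way on the log2 scale, as it did for 75.4% of all tested genes. The intervals of the other 6 (SAMD9L, IFI44L, PARP14, XAF1, IFI44 and SAMD9) reached above 1. The control and TGF-β1 libraries did not overlap in CPM for 3 members with higher values after TGF-β1 (IFI44L, XAF1 and IFI27; 7.93% of all genes) and for 2 with lower values (OASL and GBP2; 9.12% of all genes). By limma voom 0 members were called (0.38% of all genes), with 7 at an unadjusted p under 0.05 (15.2% of all genes). DESeq2 called 3, OASL as lower and PARP14 and SAMD9L as higher, where it called 4.45% of all genes. With no filter on low counts, edgeR called 5 (OASL lower, and IFI44, PARP14, SAMD9 and SAMD9L higher), in a fit that called 4.46% of all genes.

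**Figure D2:**
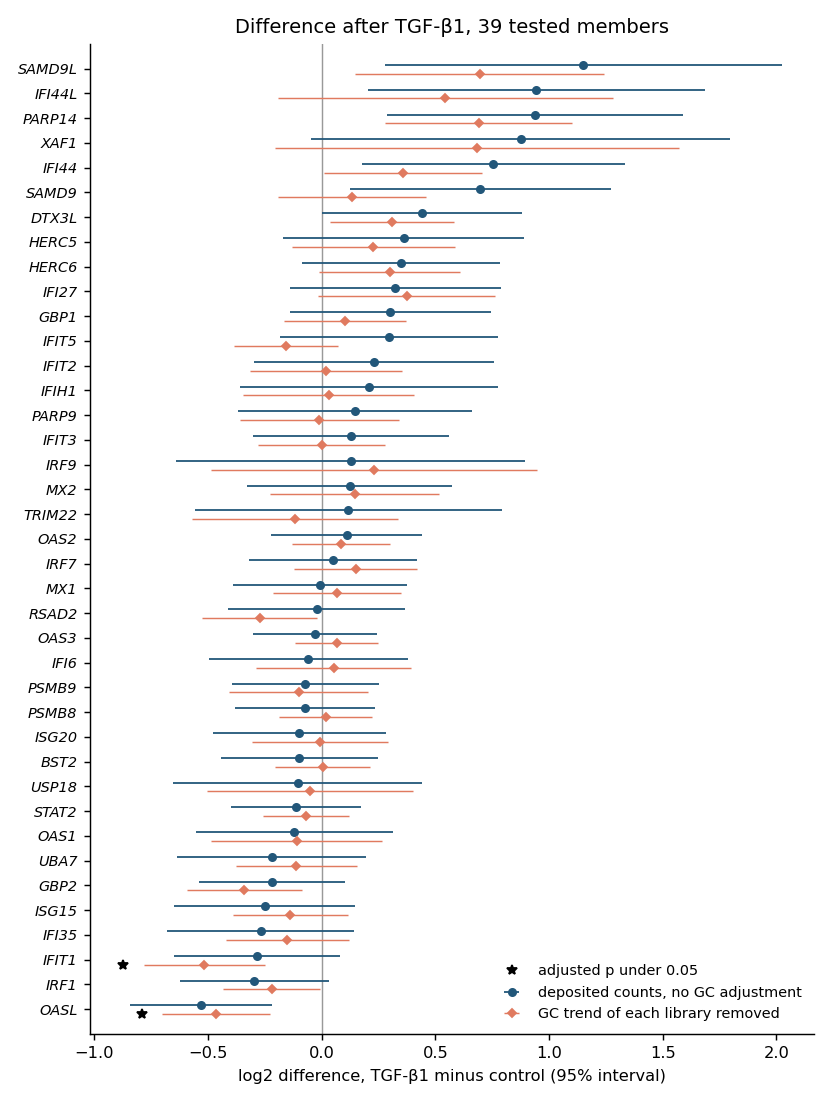
Log2 difference, TGF-β1 minus control, of the 39 tested interferon-stimulated genes in the order of their estimate, with blue circles for the deposited counts, orange diamonds after removal of the GC trend of each library, bars for the 95% interval and stars for an adjusted p under 0.05. Without GC removal SAMD9L lies farthest to the right at 1.15 and OASL farthest to the left at -0.53 with 0 of 39 starred, and after it OASL and IFIT1 are starred.

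Among the transcription factors that drive the response, STAT2, a subunit of the interferon-activated complex, had 99.3 to 101 CPM in the controls and 80.8 to 104 CPM after TGF-β1, a log2 difference of -0.11 ± 0.13 (SE; edgeR adjusted p = 0.717). IRF1, which binds similar elements and responds strongly to interferon gamma, had 1100, 1589 and 1160 counts in the controls and 971, 1052 and 1019 after TGF-β1, a log2 difference of -0.30 ± 0.15 (edgeR adjusted p = 0.359). The groups overlapped for both genes. IRF7, the factor that amplifies interferon alpha production, differed by 0.05 on the log2 scale (edgeR adjusted p = 0.911). IRF9 was close to the detection limit, with 13 to 22 counts in every library, and 48.4% of its exon bases overlap another annotated gene. IFIH1, which encodes the cytosolic double-stranded RNA sensor MDA5, had 296, 252 and 318 counts in the controls and 447, 395 and 174 after TGF-β1 (edgeR adjusted p = 0.733).

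The 4 IFIT genes, which encode proteins that bind foreign RNA and block its translation, lie side by side on chromosome 10, from 89283694 for IFIT2 to 89421001 for IFIT5 (GRCh38, GENCODE annotation). IFIT1 had 2021, 2269 and 1969 counts in the controls and 2003, 2060 and 1089 after TGF-β1, with a log2 difference of -0.29 ± 0.17 (edgeR adjusted p = 0.438). IFIT2 had 1933, 1672 and 1888 counts in the controls and 2957, 2482 and 1117 after TGF-β1, a log2 difference of 0.23 ± 0.24 (edgeR adjusted p = 0.682). IFIT3 had 2158, 1824 and 2078 counts in the controls and 2840, 2491 and 1374 after TGF-β1, a log2 difference of 0.13 ± 0.20 (edgeR adjusted p = 0.785). In CPM, IFIT2 and IFIT3 were both highest in TGF-β1 replicate 1 and lowest in TGF-β1 replicate 3. For IFIT1, TGF-β1 replicate 3 was again the lowest, but the other TGF-β1 libraries lay among the controls. IFIT5 shared the pattern of IFIT2, with 625, 481 and 276 counts after TGF-β1 against 356 to 383 in the controls.

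The OAS genes encode enzymes that sense double-stranded RNA and make 2-5A, the activator of RNase L, and OASL is a family member without that enzyme activity that acts in RNA sensing by RIG-I. OASL, on chromosome 12 from 121019111 to 121039242, had 4323, 6089 and 4238 counts in the controls and 3105, 3752 and 3053 after TGF-β1. In CPM these were 306, 355 and 258 in the controls against 189, 222 and 225 after TGF-β1, so every TGF-β1 library lay under every control library. The log2 difference was -0.53 ± 0.14 (95% interval -0.84 to -0.22; unadjusted p = 0.00309, edgeR adjusted p = 0.14), or 1.45-fold lower. OASL had the smallest unadjusted p of all 39 tested members. OAS3, the large family member, had 0.24 as the upper and -0.30 as the lower bound of its log2 interval (edgeR adjusted p = 0.935), and OAS1 and OAS2 differed by -0.12 and 0.11.

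Of the interferon-induced GTPases, GBP1, which attacks the membranes of intracellular microbes, had 698, 750 and 872 counts in the controls and 1192, 1130 and 553 after TGF-β1, a log2 difference of 0.30 ± 0.20 (edgeR adjusted p = 0.503). GBP2, its neighbour on chromosome 1, had 31.5 ± 1.17 CPM in the controls and 27.1 ± 1.56 CPM after TGF-β1, with no overlap between the groups and a log2 difference of -0.22 ± 0.15 (edgeR adjusted p = 0.501). The influenza restriction factor MX1 and its homologue MX2 differed by -0.01 and 0.12 on the log2 scale (edgeR adjusted p = 0.989 for MX1).

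ISG15 and the enzymes that attach and remove it gave estimates on both sides of 0. ISG15 itself had 5036, 7247 and 4835 counts in the controls and 3824, 6186 and 4120 after TGF-β1, a log2 difference of -0.25 ± 0.18 (95% interval -0.65 to 0.15; edgeR adjusted p = 0.541). Control replicate 2 was the highest library and TGF-β1 replicate 1 the lowest, and the groups overlapped. HERC5, the main ligase that attaches ISG15 in human cells, had 278, 234 and 301 counts in the controls and 453, 406 and 197 after TGF-β1 (log2 difference 0.36 ± 0.24, edgeR adjusted p = 0.504). HERC6, its neighbour on chromosome 4, had 440, 443 and 548 counts in the controls and 775, 672 and 379 after TGF-β1 (log2 difference 0.35 ± 0.20, edgeR adjusted p = 0.428). Both were highest in TGF-β1 replicate 1. UBA7, the activating enzyme of ISG15, differed by -0.22 (edgeR adjusted p = 0.614), and USP18, which removes ISG15 and also restrains signalling at IFNAR2, by -0.11 (edgeR adjusted p = 0.866).

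The ADP-ribosylation genes PARP14, PARP9 and DTX3L lie together on chromosome 3, with PARP9 and DTX3L head to head and sharing 2.43% of the exon bases of PARP9. PARP14, a mono-ADP-ribosyltransferase, had 341, 346 and 446 counts in the controls and 1157, 680 and 356 after TGF-β1. Its level was 23.8 ± 3.52 CPM in the controls and 45.6 ± 22.5 CPM after TGF-β1, a log2 difference of 0.94 ± 0.30 (95% interval 0.29 to 1.59; unadjusted p = 0.0087, edgeR adjusted p = 0.182). TGF-β1 replicate 3, at 26.2 CPM, lay inside the control range of 20.2 to 27.2 CPM. DTX3L, a ubiquitin ligase that works with PARP9, had 272, 288 and 357 counts in the controls and 556, 388 and 293 after TGF-β1, a log2 difference of 0.44 ± 0.20 (edgeR adjusted p = 0.32). For PARP9 the log2 difference was 0.15.

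SAMD9 and SAMD9L, paralogous antiviral proteins that restrict translation, are neighbours on chromosome 7. SAMD9L had 72, 68 and 108 counts in the controls and 315, 176 and 68 after TGF-β1. This was the largest estimate among the 39 tested members, a log2 difference of 1.15 ± 0.40 (95% interval 0.28 to 2.02; unadjusted p = 0.0142, edgeR adjusted p = 0.206), although TGF-β1 replicate 3 was at the control level. SAMD9 had 492, 602 and 475 counts in the controls and 1255, 884 and 427 after TGF-β1, a log2 difference of 0.70 ± 0.26 (edgeR adjusted p = 0.236). Both genes followed the order of PARP14 in the TGF-β1 libraries, with replicate 1 highest and replicate 3 lowest. BST2 had 1308, 1907 and 1476 counts in the controls and 1193, 1649 and 1412 after TGF-β1, a log2 difference of -0.10 ± 0.16 (95% interval -0.44 to 0.25; edgeR adjusted p = 0.794). TRIM22, a restriction factor, differed by 0.12. Of the nucleotide and RNA enzymes, RSAD2 (viperin) makes a chain-terminating nucleotide. RSAD2 had 71.2 to 87.0 CPM in the controls and 56.1 to 91.5 CPM after TGF-β1 (edgeR adjusted p = 0.968). The exonuclease ISG20 differed by -0.10 on the log2 scale.

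The genes named for their induction by interferon ranged from scarce to abundant transcripts. IFI44, a cytoplasmic antiviral protein, had 402, 395 and 389 counts in the controls and 892, 824 and 320 after TGF-β1, a log2 difference of 0.76 ± 0.26 (95% interval 0.18 to 1.33; edgeR adjusted p = 0.21). Its paralogue and neighbour IFI44L had only 15, 10 and 18 counts in the controls and 31, 26 and 25 after TGF-β1, a log2 difference of 0.94 ± 0.34 (edgeR adjusted p = 0.217). IFI44L was higher in all 3 TGF-β1 libraries, TGF-β1 replicate 3 included, whereas IFI44 in that library lay within the control range in CPM. XAF1, a pro-apoptotic protein, had 4, 14 and 17 counts in the controls and 26, 21 and 16 after TGF-β1 (log2 difference 0.88 ± 0.42, edgeR adjusted p = 0.341), with 38.3% of its exon bases overlapped by a gene on the opposite strand that counts without strand cannot separate. IFI27, a small mitochondrial protein, had 51, 60 and 67 counts in the controls and 78, 70 and 70 after TGF-β1, a log2 difference of 0.32 ± 0.21 (edgeR adjusted p = 0.492). Its CPM did not overlap between the groups. IFI6, a small protein of the same family, had 543, 970 and 717 counts in the controls and 578, 939 and 574 after TGF-β1 (log2 difference -0.06 ± 0.20, edgeR adjusted p = 0.907). IFI35 differed by -0.27 (edgeR adjusted p = 0.528). PSMB8 and PSMB9, overlapping neighbours that encode catalytic subunits of the immunoproteasome, differed by -0.08 and -0.07.

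**Figure D3:**
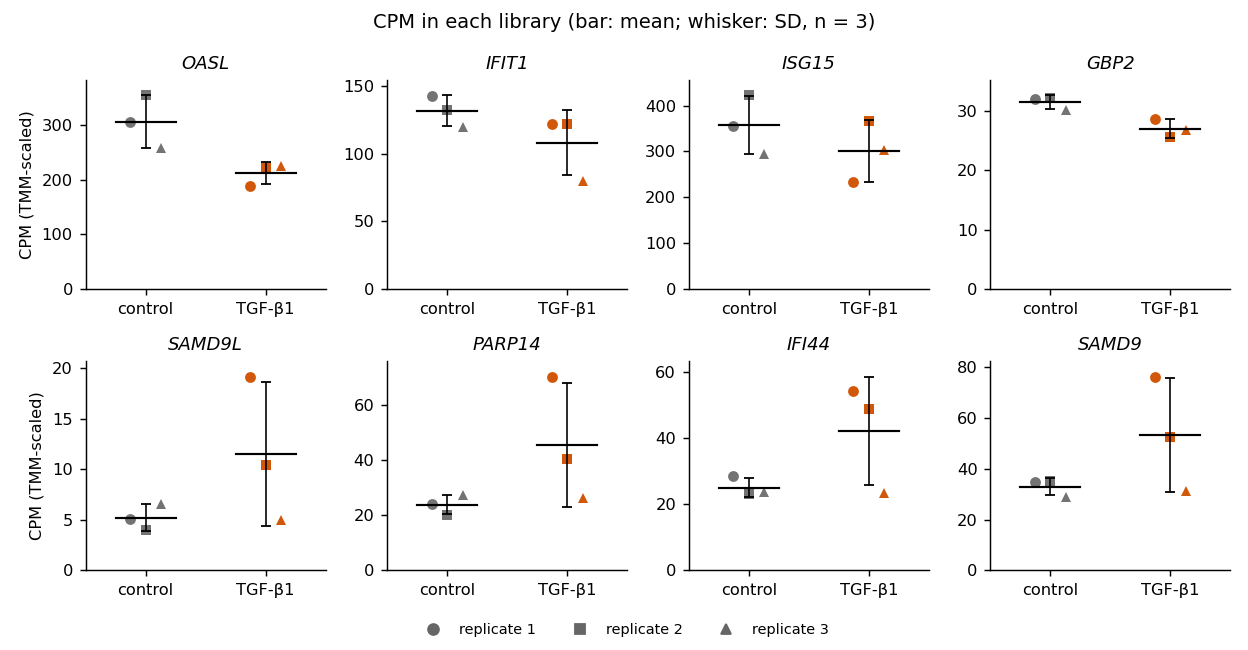
CPM of 8 interferon-stimulated genes in the 6 libraries, with a symbol for each replicate, horizontal bars for group means and whiskers for the SD (n = 3). OASL and GBP2 lie under the controls in all 3 TGF-β1 libraries, whereas SAMD9L, PARP14, IFI44 and SAMD9 are highest in TGF-β1 replicate 1 and at the control level in TGF-β1 replicate 3.

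The order TGF-β1 replicate 1, then 2, then 3 recurred across many members, so the libraries were compared with one another and with the base composition of the genes. Transcript GC content ran from 36.0% in SAMD9 to 66.8% in IRF7. Of the 18 tested members under 45% GC, 16 had their highest CPM in TGF-β1 replicate 1 (88.9%), against 71.5% of the 4431 other tested genes in the same GC range. Of the 21 at or above 45% GC, 13 had their lowest CPM there (61.9%), against 41.8% of the 8196 other genes of that range. The low-GC members had a median log2 difference between the groups of 0.30, with 15 of 18 above 0 (83.3%). The other low-GC genes had a median of 0.28, with 80.4% above 0. The members at or above 45% GC had a median of -0.08 with 6 of 21 above 0 (28.6%), and the other genes of that range a median of -0.09 with 32.4% above 0. Across genes, Pearson's r between GC content and the log2 difference was -0.63 over 39 members and -0.48 over 14375 genes with a GC value (Spearman's rho -0.64 and -0.53). These correlations are across genes that share the same 6 libraries, and genes are not independent replicates. The part of GC content in any single gene's difference was not tested.

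**Figure D4:**
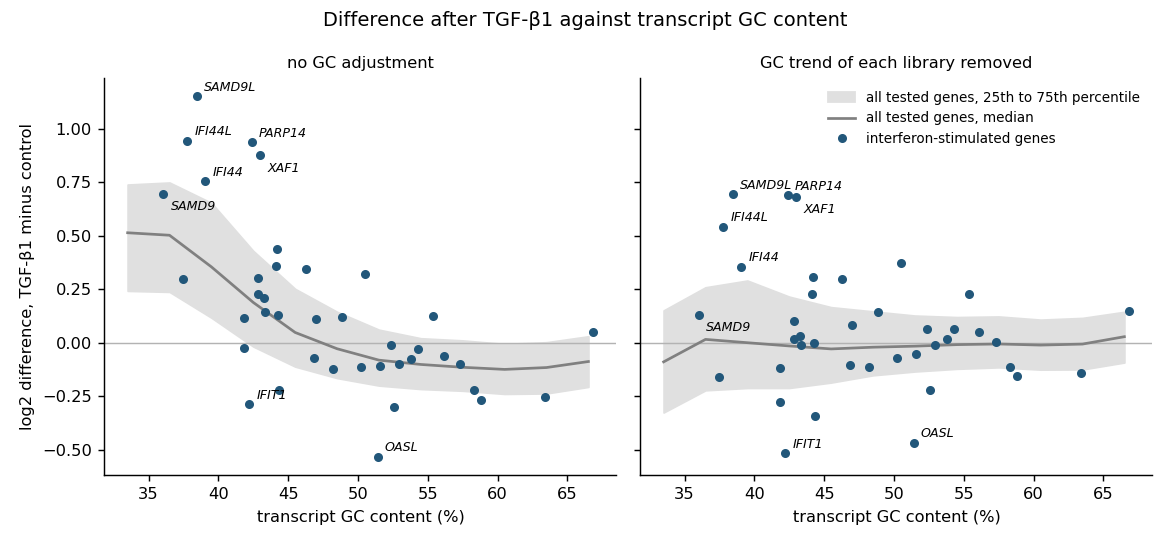
Log2 difference, TGF-β1 minus control, against the GC content in percent of the longest transcript, before (left) and after (right) removal of each library's GC trend, with points for the 39 tested interferon-stimulated genes, a line for the median of all tested genes in bins of GC content and a band from their 25th to 75th percentile. On the left, members under 45% GC have a median of 0.30 and the others a median of -0.08. On the right the line for all genes lies near 0 by construction, because the trend was fitted over all genes.

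When a smooth trend on GC content was removed from each library, the median log2 difference of the members was 0.02. Their correlation with GC content was r = -0.26 (all genes -0.02, near 0 by construction, as the trend was fitted over all genes). OASL and IFIT1 then fell and passed the adjusted p threshold, 2 members where 3.1% of all genes were called and 1.54% were called as lower, and 0 members were called as higher. OASL fell 1.38-fold, by 0.47 ± 0.11 on the log2 scale (95% interval -0.70 to -0.23; edgeR adjusted p = 0.0417). IFIT1 fell 1.43-fold, by 0.52 ± 0.12 (95% interval -0.78 to -0.25; edgeR adjusted p = 0.0446). These calls depended on single libraries: with 1 library left out in turn in the same fit, both were called without control replicate 3, OASL but not IFIT1 without TGF-β1 replicate 3, and neither in the other 4 fits. The adjusted p then ran from 0.0222 to 0.192 for OASL and from 0.0237 to 0.199 for IFIT1. Over all genes, the fit without control replicate 3 called 285 of 14737, and that without TGF-β1 replicate 3 called 1431 of 14779. The other 4 fits called 69 to 323 genes. After the removal, PARP14 had an estimate of 0.69 ± 0.19 (95% interval 0.28 to 1.10; edgeR adjusted p = 0.0716), SAMD9L of 0.70 ± 0.25 (edgeR adjusted p = 0.145) and IFI44 of 0.36 ± 0.16 (edgeR adjusted p = 0.234). For SAMD9, the member with the lowest GC content, the estimate was 0.13 in place of 0.70 (edgeR adjusted p = 0.672).

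**Figure D5:**
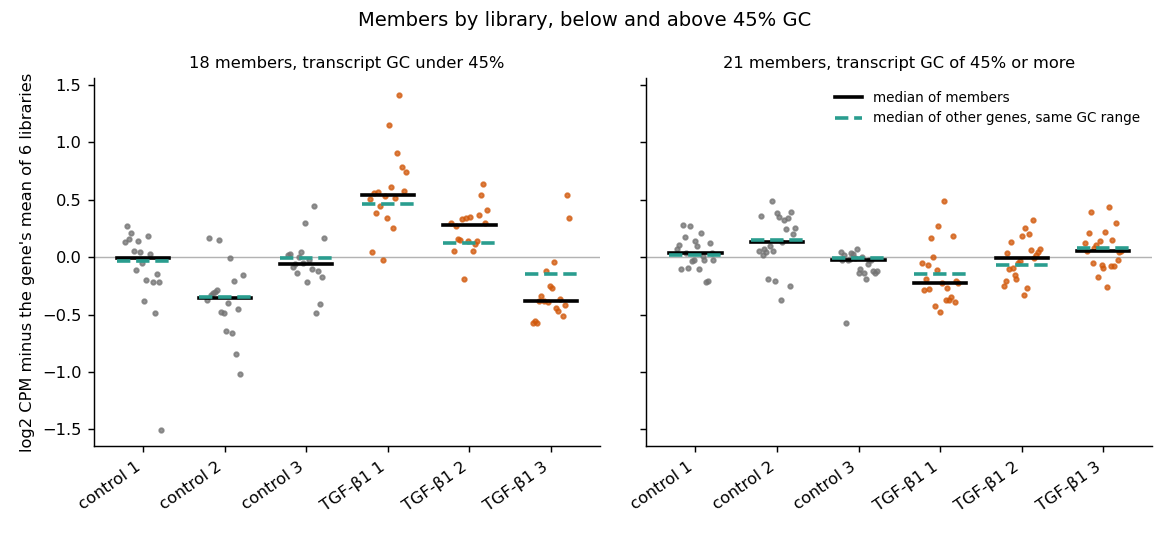
Log2 CPM of each interferon-stimulated gene in each library minus that gene's mean of the 6 libraries, for 18 members under 45% GC (left) and 21 at or above it (right), with points for genes, black bars for the members' median and dashed bars for the median of other genes in the same GC range. Low-GC members lie at a median of 0.54 in TGF-β1 replicate 1, -0.39 in TGF-β1 replicate 3 and -0.35 in control replicate 2.

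Libraries differed among themselves in both groups. Over all genes, the chi-square per degree of freedom was 15.4 between TGF-β1 replicates 2 and 3, 23.9 between 1 and 2 and 45.7 between 1 and 3. In that group replicate 1 lay farthest from the others. Between controls the chi-square per degree of freedom was 5.21 for replicates 1 and 3, 13.2 for 1 and 2 and 20.7 for 2 and 3. Low-GC members deviated from the mean of the 6 libraries by medians of 0.54, 0.28 and -0.39 on the log2 scale in TGF-β1 replicates 1 to 3. Other genes of that GC range deviated by 0.46, 0.12 and -0.15. In controls 1 to 3 the medians were -0.01, -0.35 and -0.06 for these members and -0.04, -0.34 and -0.01 for the other genes. After removal of the trend, these members still lay at 0.18, 0.14 and -0.26 in TGF-β1 replicates 1 to 3. The other genes lay at 0.02, 0.01 and -0.00, which is near 0 by construction, because the trend was fitted over all genes. Without TGF-β1 replicate 3, edgeR called 6 members, with GBP1, IFI44, PARP14, SAMD9 and SAMD9L higher and OASL lower, in a fit that called 11.2% of all genes. In the same fit after GC removal it called 5, with HERC6, IFI44, PARP14 and SAMD9L higher and OASL lower, where it called 9.68% of all genes. With any of the other 5 libraries left out instead, edgeR called 0 members before GC removal. Those fits called 2.2% of all genes without TGF-β1 replicate 1, 0.0271% without TGF-β1 replicate 2. Leaving out controls 1, 2 and 3 in turn gave 0.0875%, 0.25% and 0.101%. The cause of these differences between libraries was not tested.

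Members with and without an ISRE core in the promoter window were described side by side, with no test. The 21 members with a match, all tested, had a median log2 difference of 0.15 with 12 above 0, and the 9 tested members with a promoter entry and no match a median of -0.07 with 4 above 0. After GC removal these medians were 0.05 and -0.07. Among the 6 members with the largest estimates, IFI44L, PARP14, IFI44 and SAMD9 have a core in this window, whereas SAMD9L and XAF1 have none. Median levels were 7.27 FPKM with a match and 5.92 FPKM without.

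Genes upstream of the interferon response were measured in the same libraries. Of 43 listed ligands, receptors and signalling genes, 40 had a row and 30 were tested. By edgeR 0 were called (0.366% of all tested genes), with 5 at an unadjusted p under 0.05 (15.6% of all tested genes). Their median log2 difference was 0.08, against 0.01 over all tested genes. Ligand transcripts were scarce. IFNB1, the interferon beta gene, had 20, 19 and 16 counts in the controls and 21, 25 and 10 after TGF-β1, and IFNL1, a type III interferon, had 21, 37 and 37 against 32, 45 and 37. IFNE, which did not pass the filter with all 6 libraries, had 3, 2 and 10 counts in the controls and 30, 32 and 7 after TGF-β1. It was called as higher by edgeR with no filter (4.46% of all genes called) and without TGF-β1 replicate 3 (11.2%), as were PTPN11 and TBK1. Without TGF-β1 replicate 1 (2.2% of all genes called) it was the only 1 of the list called. IFNAR1, a chain of the type I receptor, had a log2 difference of 0.46 (edgeR adjusted p = 0.32), while IFNAR2 had at most 6 counts in any library. In GENCODE 83.2% of the exon bases of IFNAR2 overlap other genes, and how reads shared by overlapping genes were counted is not known, so this count does not show how strongly IFNAR2 was expressed. The kinase genes JAK1 and TYK2 differed by 0.15 and 0.02. Among the 30 tested, TBK1, the kinase that activates the factors inducing interferon beta, had 275, 229 and 277 counts in the controls and 712, 446 and 242 after TGF-β1 (log2 difference 0.82 ± 0.28, edgeR adjusted p = 0.21), the library order seen in PARP14 and SAMD9L.

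Further interferon-inducible genes outside the 40 gave the same count of calls. Of 50 listed, 48 had a row and 47 were tested. By edgeR 0 were called (0.366% of all tested genes), with 6 at an unadjusted p under 0.05 (15.6% of all tested genes). Their median log2 difference was 0.00, against 0.01 over all tested genes. The smallest adjusted p among them was that of CD274, which encodes the immune checkpoint ligand PD-L1, with a log2 difference of 0.69 ± 0.21 (edgeR adjusted p = 0.171). Of 19 tested genes of MHC class I antigen presentation, 0 were called by edgeR and 3 passed at an unadjusted p under 0.05. The shares of all tested genes were again 0.366% and 15.6%. The median log2 difference of these 19 genes was -0.05. The smallest p among them was that of ERAP2, a peptidase that trims peptides for these molecules, with a log2 difference of 0.66 ± 0.24 (edgeR adjusted p = 0.23). B2M, their shared light chain, had an estimate of -0.27 (edgeR adjusted p = 0.268).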

How the data were processed

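The deposited table held whole-number read counts and FPKM values per gene for 6 libraries. The counts were deposited without normalization, per the file headers. The FPKM values deposited by the authors use 1 gene length per gene, the same in all 6 libraries, and the total of the table. HISAT2, HTSeq 0.13.5 and GRCh38 are named in the submitters' processing notes without a role, and no annotation release is named there. The library kit named in the labels (NEBNext Ultra RNA) is unstranded, so reads of overlapping genes cannot be separated by strand.

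The test was the robust quasi-likelihood F test of edgeR 4.0.16 (R 4.3.3) after filterByExpr and TMM, two-sided, with Benjamini-Hochberg adjustment over 14463 genes and calls at an adjusted p under 0.05. The standard error of a log2 difference is its size divided by the square root of F. CPM of genes use TMM-scaled library sizes, and summed markers and the floor use total counts. The floor of 3 counts is 0.17 to 0.216 CPM, which covers counting error only. Coordinates, overlaps and transcript GC content come from GENCODE 29 on GRCh38. The GC trend was a loess fit (span 0.5) of each library's deviation in log2 CPM on the GC content of the longest transcript, used as an offset.

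Genes given with counts were the 12 members with the largest absolute log2 difference and the 6 with the highest FPKM; others were added after their values were seen, and other list genes had the smallest p or a role in the pathway. Members and lists were chosen with earlier results of these data known. Alternatives were other scaling factors, no filter, a floor of at least 1 CPM in 3 libraries, a block on replicate number, GC removal without and with the block, DESeq2 1.42.0, limma 3.58.1 with voom or on log2(FPKM + 1) and log2(FPKM + 0.1), and each library left out. Leaving libraries out in the fit with GC removal was added after seeing the data. Methods were run on simulated counts with known changes. Those counts held no GC trend between libraries, so they did not check its removal.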

Additional observations from a re-analysis of the deposited data

How the results depend on the processing

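Of the 39 tested members, 21 kept the sign of their log2 difference in every one of 18 alternatives. In at least 1 of these 18 alternatives 7 members were called. The share of all genes called in at least 1 was not counted, so the 7 cannot be weighed against it. HERC6 is not among the 7, as it was called only with GC removal and without TGF-β1 replicate 3, a fit outside the 18. The number of members called was 3 with DESeq2, 5 without the filter and 2 with GC removal. Of all genes, these fits called 4.45%, 4.46% and 3.1%. Leaving 1 library out gave 0 to 6 members (0.0271% to 11.2% of all genes). With GC removal as well it gave 0 to 5, and the fit that called 5 called 9.68% of all genes. The labels do not say whether replicate numbers pair the libraries. Deviations from the group mean correlated at 0.164, 0.093 and -0.336 for same-numbered libraries, and at -0.481 to 0.42 for differently numbered ones. These values cannot settle pairing, because each group has only 3 libraries and their GC trends were not removed. With the replicate number as a block 1 member was called (PARP14; 3.64% of all genes), and 2 with GC removal and the block (1.89%). Signs turned as follows. With GC removal the values were -0.157 for IFIT5, -0.119 for TRIM22, -0.0102 for PARP9, -0.000894 for IFIT3, 0.0655 for OAS3, 0.0669 for MX1, 0.0528 for IFI6, 0.0166 for PSMB8 and 0.0047 for BST2. With GC removal and the block they were -0.16 for IFIT5, -0.098 for TRIM22, -0.0106 for IFIT2, -0.00908 for IFIT3, -0.000267 for IFIH1, 0.0644 for OAS3, 0.0672 for MX1, 0.0401 for IFI6 and 0.0169 for PSMB8. Scaling by total counts gave 0.0116 for MX1 and 0.00261 for RSAD2, and MX1 was at 0.00871 and 0.00416 with limma on log2(FPKM + 0.1) and log2(FPKM + 1). With 1 library left out the ranges were IRF7 -0.052 to 0.143, IRF9 -0.105 to 0.307, IFIH1 -0.00984 to 0.463, IFIT2 -0.0202 to 0.487, IFIT3 -0.047 to 0.315, OAS3 -0.0917 to 0.0388, MX1 -0.0875 to 0.0412, MX2 -0.000192 to 0.182, USP18 -0.40 to 0.0377, PARP9 -0.0663 to 0.347, RSAD2 -0.166 to 0.158, ISG20 -0.233 to 0.0296, BST2 -0.204 to 0.0397, TRIM22 -0.167 to 0.394, IFI6 -0.259 to 0.0902, PSMB8 -0.166 to 0.000952 and PSMB9 -0.157 to 0.023. The adjusted p of OASL ran from 0.00609 to 0.381 over its alternatives. For the signalling genes the median was 0.12 with DESeq2, 0.0194 with GC removal, 0.0207 with GC removal and the block, 0.0463 with the block, 0.037 and 0.025 with limma on log2(FPKM + 0.1) and log2(FPKM + 1), 0.0316 with voom, 0.125 without the filter, 0.0434 with upper quartile factors and 0.0257 to 0.176 with 1 library left out. Calls among them were 3 without the filter and 0 to 3 with 1 library left out. Further interferon-inducible genes had 3 calls with DESeq2, 6 without the filter, 1 with the block and 0 to 6 with 1 library left out. MHC class I genes had 1 without the filter and 0 to 2 with 1 library left out. Over all genes, DESeq2 called 4.45%, the fit without the filter 4.46% and the block 3.64%. With 1 library left out the share of all genes ran from 0.0271% to 11.2%. The causes of these shifts were not tested. CMPK2, IRF9, XAF1 and IFI44L had few counts, so their differences are imprecise, and 48.4% of the exon bases of IRF9 and 38.3% of those of XAF1 overlap other genes. For SAMD9L, IFI44L, PARP14, XAF1, IFI44 and SAMD9 a difference above 1 on the log2 scale lies inside the 95% interval.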
